A study of Mus musculus with 6 samples.

Results

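SLURP1, its relatives in the Ly6 family and the nicotinic acetylcholine receptor subunits were examined in D2A1 spheroids treated with recombinant SLURP1 (rSLURP1). The 10 genes were chosen by name (Slurp1, Lynx1, Ly6a, Ly6c1, Ly6d, Ly6e, Cd59a, Chrna7, Chrna1 and Chrnb1) and all 10 were found among the 54146 genes measured. D2A1 is a mouse mammary tumor cell line, here grown in 3D in Matrigel in medium with serum. RNAseq was carried out on 3 libraries treated with rSLURP1 and 3 with the control protein, recombinant GST (rGST), both at 50 nM. Cells of both groups were D2A1, a single cell line without the immune or stromal cells of a tumor. The study's methods describe no genetic modification of the cells used for these spheroids. The sample labels do not say whether the 3 libraries of a group came from separate cultures, so p-values measure the spread between these libraries, which may be technical.

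SLURP1 is a small secreted protein of the Ly6/uPAR family, known from keratinocytes and best known as a ligand that modulates nicotinic acetylcholine receptors. Proteins of this family share a fold of several loops held by disulfide bonds, and most of them, unlike SLURP1, are held on the outer cell surface by a glycosylphosphatidylinositol (GPI) anchor. Nicotinic receptors are ion channels built from a ring of subunits. The alpha 7 subunit (Chrna7) forms a channel by itself and is the receptor most often named for SLURP1, whereas the muscle receptor needs alpha 1 (Chrna1), beta 1 (Chrnb1), delta and either gamma or epsilon.

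RefSeq promoter windows (GRCm38.p6, 250 bases before to 50 after a gene's start) were matched to Cd59a, Chrna1, Chrna7, Chrnb1 and Ly6c1, 5 of the 10 members. Those of Chrnb1 and Chrna7 are shown because these receptor subunits were at opposite ends of the measured levels, and capitals mark each CG dinucleotide.
Chrnb1 promoter, chr11:69795888-69796187, minus strand: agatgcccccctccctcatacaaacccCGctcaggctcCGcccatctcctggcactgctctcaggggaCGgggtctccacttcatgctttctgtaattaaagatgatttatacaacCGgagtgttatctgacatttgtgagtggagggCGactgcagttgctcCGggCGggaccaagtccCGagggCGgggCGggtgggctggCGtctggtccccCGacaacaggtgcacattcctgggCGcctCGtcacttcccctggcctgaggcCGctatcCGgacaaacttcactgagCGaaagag
Chrna7 promoter, chr7:63212477-63212776, minus strand: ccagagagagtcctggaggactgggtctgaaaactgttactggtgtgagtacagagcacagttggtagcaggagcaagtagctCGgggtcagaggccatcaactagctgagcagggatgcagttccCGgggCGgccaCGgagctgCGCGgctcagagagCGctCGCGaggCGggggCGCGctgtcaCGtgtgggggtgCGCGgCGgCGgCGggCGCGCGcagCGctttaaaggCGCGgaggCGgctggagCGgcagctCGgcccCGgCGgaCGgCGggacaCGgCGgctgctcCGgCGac
The Chrnb1 window held 17 CG dinucleotides and the Chrna7 window 35, against a median of 7 over the 32851 windows, of which 94.6% held at least 1. Both held more CG than most windows, while Chrna7 was listed at 0 and Chrnb1 was not. The motif CCCCACCC, which the study assigns to KLF4, was searched on both strands (GGGTGGGG on the other) and was not found in the 6 windows of these 5 members, whereas 9.99% of all windows held it. So few windows cannot be told apart from that share, and they say nothing of bases outside them. Slurp1, for whose promoter the study predicts this motif, had no window and was not searched.

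Values are RSEM transcript abundances (TPM), scaled to the same total in each library, which correct for transcript length, so that levels can be compared between genes. TPM keeps no read depth, and the counting error of each value is therefore unknown. The filter kept the 12301 genes that reached a TPM of 1 in 3 or more libraries. They were tested by limma on log2(TPM + 1), a scale that understates the fold change of low genes, and a gene was called when its adjusted p-value did not exceed 0.05. Of these genes, 67.2% were called, 58.5% lower and 8.66% higher with rSLURP1, and the median log2 fold change was -0.33. Lower genes made up 87.1% of the calls as deposited and 49.2% with median-ratio scaling of the libraries, so the main changes are also given as a distance from the overall median. A gene whose 3 rSLURP1 libraries all lay below the 3 rGST libraries was common (61.7% of tested genes), and the opposite order was found in 9.75%. The smallest two-sided p-value that an exact permutation test can reach with 3 against 3 libraries is 0.1, so the p-values given come from limma.

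Of the 10 members, 3 passed the filter (Ly6e, Chrnb1 and Cd59a), 4 had a TPM above 0 in some library but did not pass (Lynx1, Ly6a, Ly6c1 and Chrna1), and 3 were listed at 0 in all 6 libraries (Slurp1, Ly6d and Chrna7). Ly6e and Chrnb1 were lower with rSLURP1 and Cd59a was not called, so that 2 of the 3 tested members were lower, against 58.5% of all tested genes. In bulk RNA, fewer cells that carry a transcript and less of the transcript per cell cannot be told apart.

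**Figure D1:**
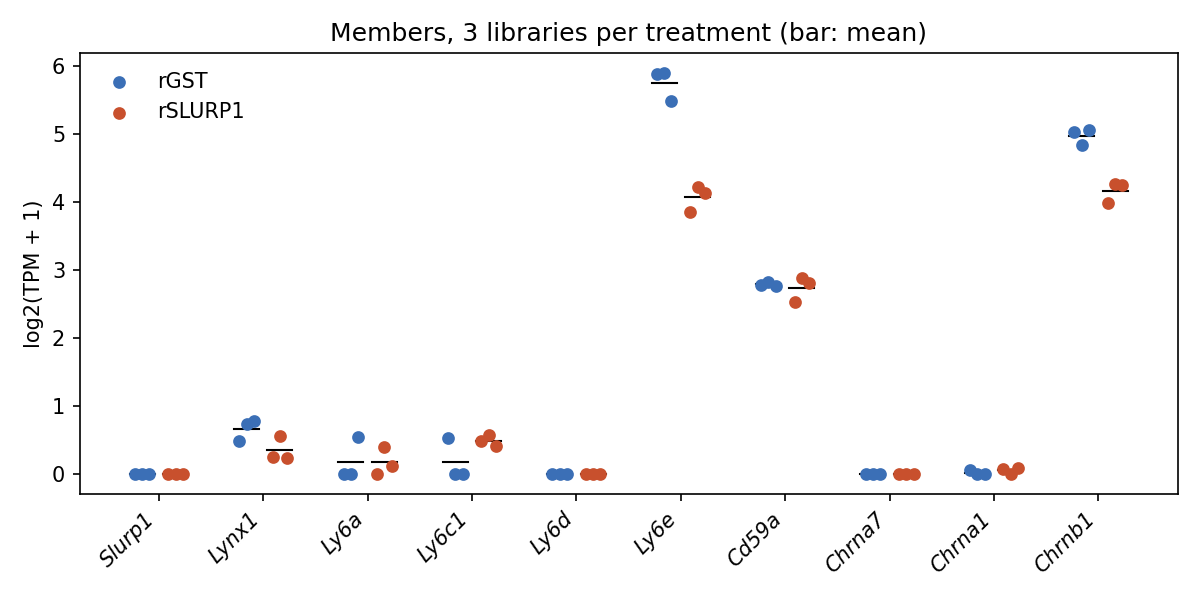
Expression of the 10 members as log2(TPM + 1) on the vertical axis; each point is a library (blue rGST, orange rSLURP1) and bars are means of 3 libraries. Ly6e and Chrnb1 separate by treatment, Cd59a overlaps, and Slurp1, Ly6d and Chrna7 lie at 0.

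Slurp1 itself (ENSMUSG00000022596.3; GRCm38 chromosome 15, 74724318 to 74728034, minus strand) was listed at 0 in every rGST and every rSLURP1 library. The treatment was the protein added to the medium, so the transcript is no check of the treatment, and no rise of the cells' own Slurp1 was seen with rSLURP1. Its exons share 322 bases with exons of Them6 on the opposite strand, and Them6 was measured at 5.46 to 6.11 TPM with rGST and 5.70 to 6.37 TPM with rSLURP1. Slurp2, the other secreted relative, was also listed at 0 in all 6 libraries.

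Ly6e, an interferon-inducible, GPI-anchored surface protein known to limit entry of some viruses, was the most abundant member with rGST. It lies in the same gene cluster as Slurp1 (ENSMUSG00000022587.14; chromosome 15, 74955051 to 74959905, plus strand). Its TPM was 57.7, 58.3 and 43.5 in the rGST libraries and 13.4, 17.6 and 16.5 in the rSLURP1 libraries. Every rSLURP1 library lay below every rGST library, with no overlap. The mean fell from 53.2 ± 8.35 to 15.8 ± 2.19 TPM (SD, n = 3 each), 3.36-fold lower. On the log2 scale the change was -1.68 with a standard error of 0.137 (adjusted p = 3.74e-05 in limma), a distance of -1.36 from the overall median. A decrease of at least 2-fold was called in 7.06% of all tested genes. By mean TPM, Ly6e ranked 3131 of the tested genes with rGST and 6498 with rSLURP1.

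The other Ly6 members were close to the lower limit of the table. Lynx1, a GPI-anchored brake on nicotinic receptors in brain, was at 0.40, 0.67 and 0.71 TPM with rGST and at 0.19, 0.48 and 0.18 with rSLURP1. The groups overlapped, and when the filter was dropped its log2 fold change was -0.31 (adjusted p = 0.121 in limma). Ly6a (Sca-1), a stem and progenitor cell marker, was at 0, 0 and 0.46 TPM with rGST and at 0, 0.32 and 0.090 with rSLURP1. Ly6c1, a marker of monocytes and endothelium, was at 0.44, 0 and 0 TPM with rGST and at 0.40, 0.49 and 0.33 with rSLURP1. Neither Ly6a nor Ly6c1 separated by treatment. Ly6c1 and its neighbor Ly6c2 are close paralogs, and Ly6c2 was at most 0.60 TPM, so how reads were divided between them is uncertain. Ly6d, known from B-cell precursors and stratified epithelia, was listed at 0.

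Cd59a, a GPI-anchored inhibitor of the terminal complement complex that shares the Ly6/uPAR fold, lies outside the cluster (ENSMUSG00000032679.12; chromosome 2, 104095801 to 104115354, plus strand). It was at 5.86, 6.08 and 5.76 TPM with rGST and at 4.78, 6.35 and 6.0 with rSLURP1. The groups overlapped, and the rSLURP1 libraries held both the lowest and the highest value. The log2 fold change, -0.05, had a standard error of 0.114 (95% confidence interval -0.31 to 0.22, adjusted p = 0.729 in limma). Without rSLURP1 replicate 1 it was at 0.06 and not called, and with quantile normalization it reversed to 0.34 and was called (adjusted p = 0.0335 in limma). Its paralog Cd59b was at 0.14 to 0.25 TPM with rGST and at 0 to 0.10 with rSLURP1. The groups of Cd59b did not overlap, and it was called lower when the filter was dropped (log2 fold change -0.23, adjusted p = 0.0285 in limma).

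Chrnb1, the beta 1 subunit of the muscle receptor, was the 1 nicotinic member that passed the filter (ENSMUSG00000041189.9; chromosome 11, 69784036 to 69795943, minus strand). It was at 31.4, 27.6 and 32.1 TPM with rGST and at 14.8, 18.2 and 18.0 with rSLURP1, and the groups did not overlap. The mean fell from 30.4 ± 2.44 to 17.0 ± 1.92 TPM (SD, n = 3 each), 1.79-fold lower. The change was -0.81 on the log2 scale with a standard error of 0.098 (adjusted p = 2.53e-04 in limma), a distance of -0.48 from the overall median. Chrna1, its alpha partner in the muscle receptor, did not exceed 0.070 TPM in any library. Chrna7 was listed at 0 in all 6 libraries. With rGST, Ly6e lay above Chrnb1 in TPM without overlap. With rSLURP1, the ranges of Ly6e and Chrnb1 overlapped, although Ly6e was the lower of the pair within each of the 3 libraries. Their order was not tested.

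Of all 16 nicotinic subunit genes, Chrnb1 alone passed the filter, 7 had a TPM above 0 in some library, and 8 were listed at 0 throughout, among them Chrna3, Chrna4, Chrna5, Chrna7 and Chrne. Chrnb1 held 97.0% to 98.0% of the summed TPM of the subunits with rGST and 89.9% to 96.9% with rSLURP1. Chrnd, the delta subunit of the muscle receptor, was at 0.020, 0.15 and 0.020 TPM with rGST and at 0.25, 0.050 and 1.37 with rSLURP1. The highest of these came from a single library, and the groups overlapped. Chrng did not exceed 0.010 TPM. Chrna2 was at 0.21 to 0.75 TPM with rGST and at 0.010 to 0.10 with rSLURP1. Its groups did not overlap, but it was not called when the filter was dropped (log2 fold change -0.39, adjusted p = 0.113 in limma). Chrnb2, a neuronal beta subunit, was at 0.23 to 0.30 TPM with rGST and at 0.42 to 0.51 with rSLURP1, and passed the test when the filter was dropped (log2 fold change 0.22, adjusted p = 0.0211 in limma). Its exons share 1365 bases with Adar on the opposite strand, whose mean was 84.7 TPM with rGST and 35.5 with rSLURP1, and the strand setting of the counting is not given in the sources used here.

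**Figure D2:**
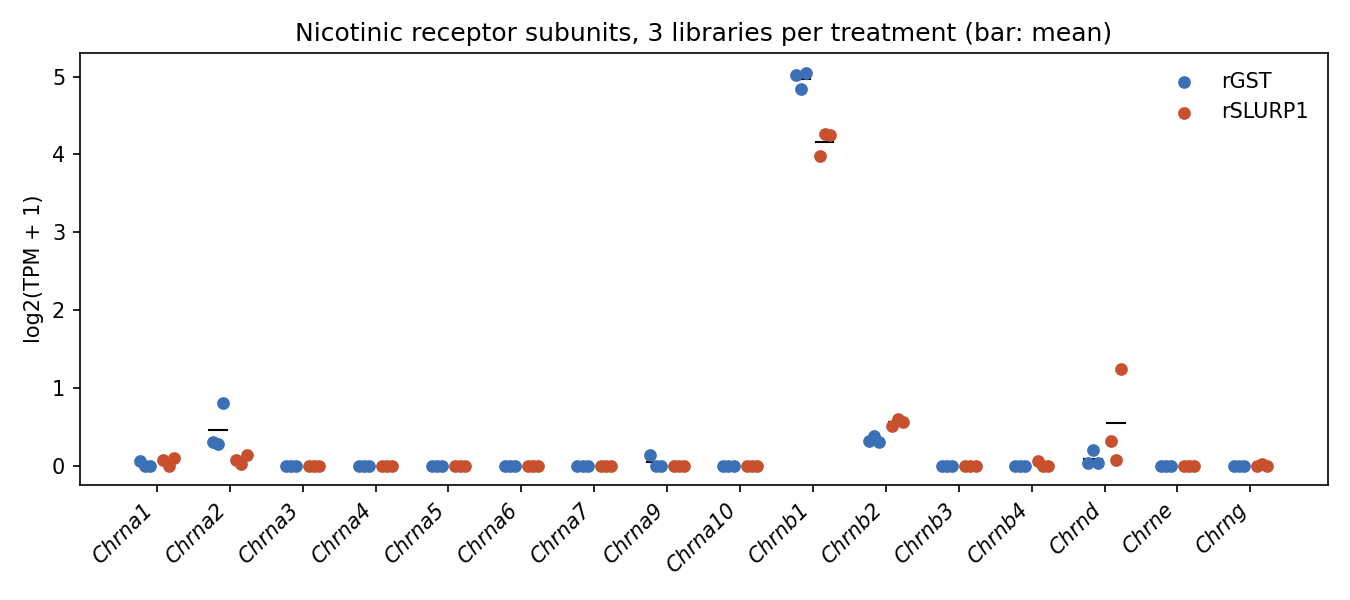
All 16 nicotinic subunit genes as log2(TPM + 1); each point is a library (blue rGST, orange rSLURP1) and bars are means of 3 libraries. Chrnb1 stands apart in both treatments, and every other subunit stays below a TPM of 1 except Chrnd in rSLURP1 replicate 3 (1.37 TPM).

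Genes that help nicotinic receptors to assemble or cluster, or that make, move or degrade acetylcholine, were listed with the muscarinic receptors. Of the 21 found in the table, 5 passed the filter, 4 fell and 1 was not called, against 58.5% lower over all tested genes, with a median log2 fold change of -0.31 against -0.33 over all genes. With median-ratio and with quantile scaling 2 of the 5 were lower and 1, Rer1, was higher. Agrn (agrin, which clusters receptors at the synapse) fell from 140.6 ± 4.10 to 93.2 ± 4.58 TPM (SD, n = 3 each), or by 0.59 on the log2 scale. Its receptor Lrp4 fell from 4.39 ± 0.700 to 2.05 ± 0.159 TPM (log2 fold change -0.82). Adjusted p-values in limma were 4.02e-05 for Agrn and 0.0012 for Lrp4, and after adjusting for GC content and transcript length they were 0.0597 and 0.0929. Unc50, which acts in receptor trafficking, fell by 0.31 on the log2 scale (adjusted p = 6.46e-04 in limma), at a distance of 0.01 from the overall median, and with median-ratio scaling it was at 0.038 and not called. Slc44a1, a choline transporter, fell by 0.29 on the log2 scale (adjusted p = 0.0276 in limma), and it was not called in 4 of the 6 fits that each left out a library (without rGST replicate 1, 2 or 3 or rSLURP1 replicate 1, adjusted p 0.0551 to 0.0721). Rer1, a retrieval receptor of the early secretory pathway, had a log2 fold change of 0.14 (adjusted p = 0.0659 in limma). Rer1 was called higher with median-ratio scaling (0.49, adjusted p = 1.81e-04), with quantile normalization (0.46, adjusted p = 2.69e-04) and without rSLURP1 replicate 1 (0.20, adjusted p = 0.0135 in limma). The chaperones Ric3 and Tmem35, which alpha 7 needs to fold, and Chat, the enzyme of acetylcholine synthesis, were listed at 0 in all 6 libraries.

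The wider Ly6/uPAR family was listed with 46 genes, of which 40 were found in the table. Only 4 passed the filter (Ly6e, Cd59a, Plaur and Lypd6b), 13 had a TPM above 0 in some library and 23 were listed at 0 throughout. Among the 4, Ly6e was lower, Plaur and Lypd6b were higher, and Cd59a was not called, against 58.5% lower and 8.66% higher over all tested genes. Lypd6b passed the filter through its rSLURP1 libraries only. The directions of Ly6e and Plaur held under each scaling.

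Lypd6b, a family member reported to modulate nicotinic receptors, was at 0.12, 0.020 and 0.050 TPM with rGST and at 2.22, 2.03 and 2.12 with rSLURP1 (ENSMUSG00000026765.12; chromosome 2, 49787688 to 49948849, plus strand). All rSLURP1 libraries lay above all rGST libraries. The log2 fold change of 1.56 had a standard error of 0.148 (adjusted p = 7.7e-05 in limma) and became 3.81 with a pseudocount of 0.1. A difference was thus built into its passing the filter, and it stayed a low transcript (rank 10920 of the tested genes with rSLURP1).

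Plaur (uPAR), the receptor of urokinase that gives the family its name, was at 16.3, 15.3 and 19.6 TPM with rGST and at 40.4, 42.4 and 33.1 with rSLURP1, with no overlap. Its log2 fold change of 1.13 lies 1.46 above the overall median (adjusted p = 1.19e-04 in limma), and an increase of at least 2-fold was called in 1.15% of all tested genes. Within the family, Ly6e held 61.3% to 71.8% of the summed TPM with rGST and 21.3% to 27.9% with rSLURP1. Plaur held 18.9% to 27.6% with rGST and 56.0% to 64.2% with rSLURP1. The most abundant family transcript was thus Ly6e in each rGST library and Plaur in each rSLURP1 library.

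Most genes around Slurp1 and Ly6e were listed at 0. Of the 40 family genes, 18 lie in a span of 884.6 kb on chromosome 15 (74714839 to 75599481 in GRCm38), and Ly6e was the only one of them to pass the filter. Of the 50 genes that the table holds in this span, 40 were listed at 0 in all libraries and 2 passed the filter, Ly6e and Them6. Them6, next to Slurp1, had a mean TPM of 5.77 ± 0.326 in the control and 5.93 ± 0.381 in the treated libraries (SD, n = 3 each; log2 fold change 0.03, adjusted p = 0.767 in limma).

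**Figure D3:**
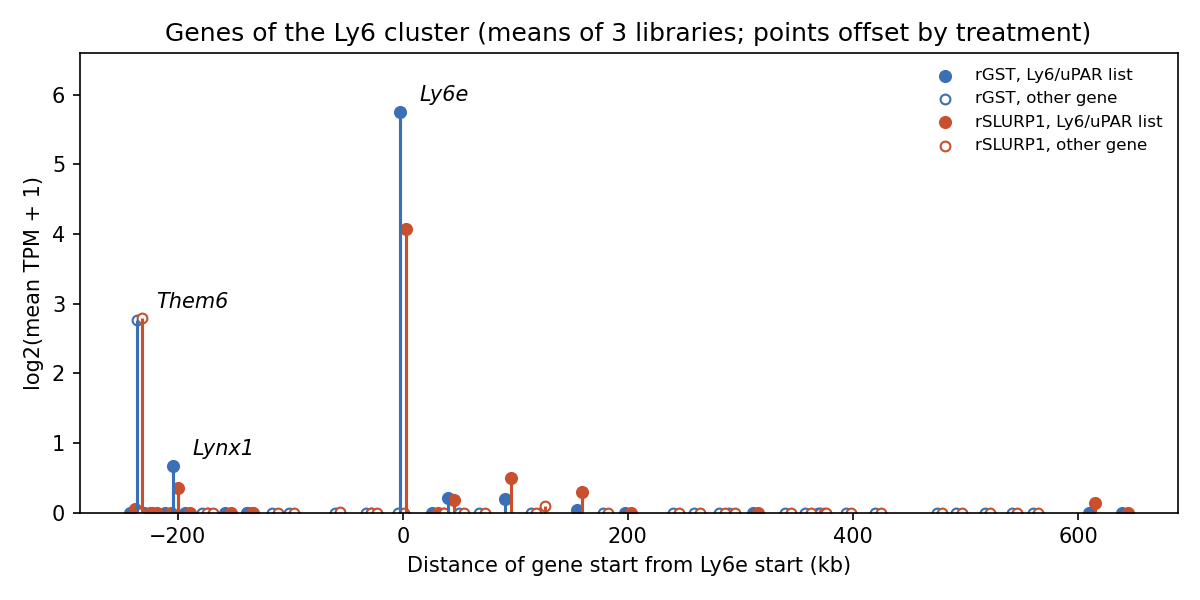
Genes of the Ly6 cluster by the distance of their start from the start of Ly6e (kb, horizontal) and log2(mean TPM + 1, vertical); blue is rGST, orange rSLURP1, filled points are Ly6/uPAR genes and open points other genes. Ly6e and Them6 rise above the rest, and of these only Ly6e was called.

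GPI anchors are made and attached in the endoplasmic reticulum, and LY6E, CD59A and uPAR all depend on them. Of 29 genes of this pathway, 28 passed the filter, 12 were lower and 0 higher in limma, against 58.5% lower over all tested genes, and the median log2 fold change was -0.21, above the -0.33 of all genes. With median-ratio scaling 5 were lower and 6 higher. In the transamidase complex, which attaches the anchor, Pigs, Pigt and Pigu fell (log2 fold changes -0.68, -0.57 and -0.60), whereas Gpaa1 and Pigk were not called (-0.14 and -0.08). Pigu was not called after the length and GC correction (adjusted p = 0.0941 in limma), whereas Pigk was then called higher (log2 fold change 0.36, adjusted p = 0.0129 in limma). Dpm1, of the enzyme that supplies mannose, fell from 44.0 ± 5.93 to 23.5 ± 0.941 TPM (SD, n = 3 each, log2 fold change -0.87, adjusted p = 1.51e-04 in limma), and its exons share 895 bases with Gm20716 on the same strand. The other Dpm genes did not fall as far. Dpm2 was not called (log2 fold change 0.14, adjusted p = 0.0917 in limma). Dpm3 fell by 0.42 on the log2 scale (adjusted p = 3.03e-04 in limma), at a distance of -0.09 from the overall median.

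Proteins reported to bind or act with SLURP1 were compared, as candidate receptors except for Plau, a ligand. Of the 6 listed, Pdgfra and Pdgfrb, receptors of platelet-derived growth factors, were the most abundant in rGST libraries. Pdgfra fell from 196.8 ± 7.15 to 53.9 ± 3.32 TPM and Pdgfrb from 107.8 ± 5.01 to 19.6 ± 1.60 TPM (SD, n = 3 each). Their log2 fold changes were -1.85 and -2.40 (adjusted p = 4.36e-07 and 3.75e-07 in limma). Plau (urokinase), the ligand of uPAR, was at 1.31, 2.12 and 1.16 TPM with rGST and at 0.58, 0.94 and 0.64 with rSLURP1. Plau passed the filter through its rGST libraries only, so that a difference was built into its passing. Its log2 fold change was -0.54 (adjusted p = 0.0377 in limma), and it was not called when the filter was dropped (adjusted p = 0.0668 in limma), when rGST replicate 1 or 2 or rSLURP1 replicate 1 or 3 was left out (adjusted p 0.0527 to 0.116), with median-ratio or quantile scaling (adjusted p = 0.141 and 0.394 in limma) or after the length and GC correction (adjusted p = 0.436 in limma). Egfr did not pass the filter, at 0.23 to 0.67 TPM with rGST and 0.040 to 0.14 with rSLURP1. Its groups did not overlap, and it was called lower when the filter was dropped (log2 fold change -0.41, adjusted p = 0.0413 in limma). Of the 4 genes of this list that passed the filter, Plaur was higher and 3 were lower, Plau included, against 8.66% higher and 58.5% lower over all tested genes. Chrna7 was listed at 0.

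Transcription factors and interferon-gamma receptor genes that the study examined in connection with Slurp1 expression were measured although Slurp1 was listed at 0. Klf4 fell from 33.3 ± 0.896 to 17.4 ± 1.25 TPM (log2 fold change -0.90, adjusted p = 2.51e-05 in limma), whereas Klf2 rose from 14.7 ± 0.599 to 42.8 ± 1.59 TPM (log2 fold change 1.48, adjusted p = 1.59e-06 in limma; SD, n = 3 each). Ifngr1, the ligand-binding chain of the interferon-gamma receptor, fell by 0.70 on the log2 scale, and Ifngr2 had a log2 fold change of -0.29 that was not called (adjusted p = 0.0775 in limma).

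**Figure D4:**
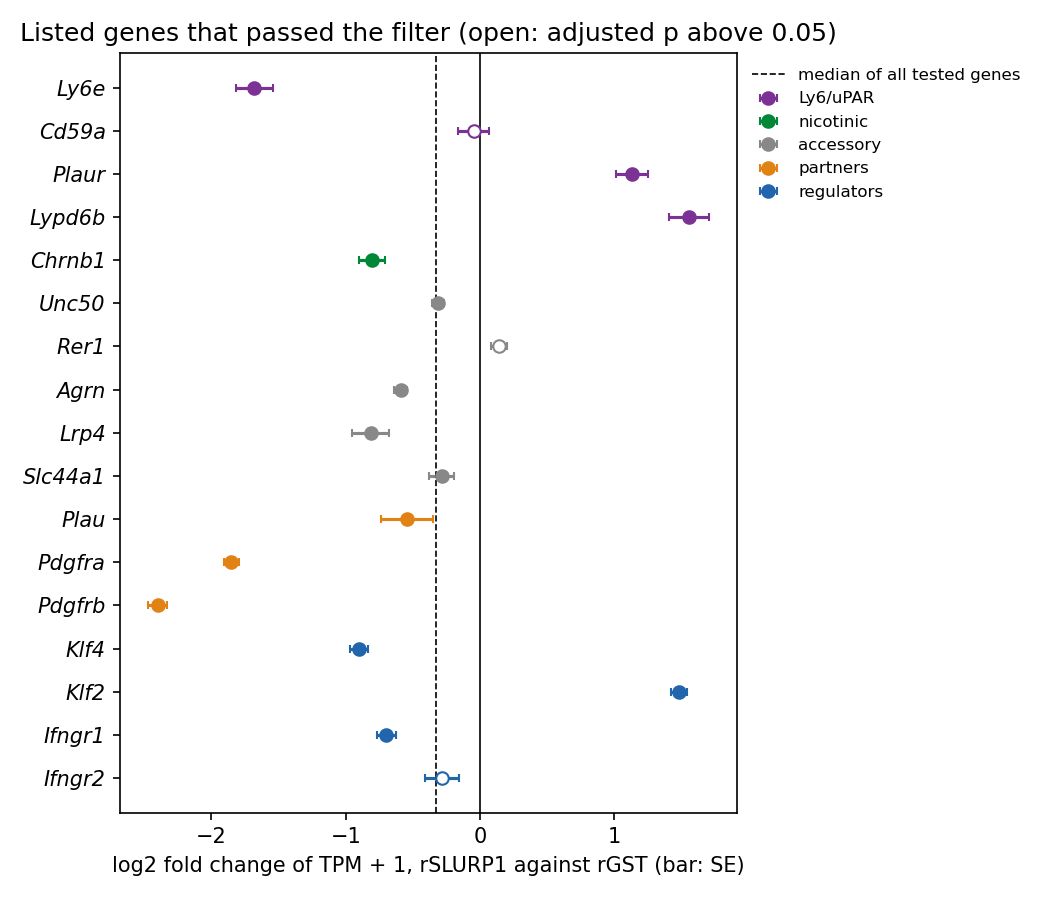
Log2 fold change of TPM + 1, rSLURP1 against rGST, with its standard error (horizontal) for listed genes that passed the filter. The GPI anchor genes, the cell type marker lists and the listed gene not reported here are left out. Filled points have an adjusted p of 0.05 or less in limma. Among the genes shown, Ly6e, Pdgfra and Pdgfrb lie farthest below the dashed median of all tested genes (-0.33), and Plaur, Lypd6b and Klf2 farthest above it.

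The labelled cell type was checked against marker lists. Of 7 epithelial markers, 2 passed the filter. Krt18 had a mean TPM of 195.6 ± 4.13 in the control and 197.7 ± 1.68 in the treated libraries (SD, n = 3 each), and made up most of the summed level of the list. Krt8 fell from 1.56 ± 0.140 to 0.697 ± 0.163 TPM (SD, n = 3 each; log2 fold change -0.60, adjusted p = 0.00968 in limma) and passed the filter through its rGST libraries only. Epcam was listed at 0 and Cdh1 did not exceed 0.070 TPM. The summed level of the epithelial list was 192.8 to 200.7 TPM with rGST and 197.0 to 200.7 with rSLURP1. Of 6 mesenchymal markers, 5 passed the filter and all 5 were lower, against 58.5% of all tested genes, with a summed level of 2147 to 2371 TPM with rGST and 704.3 to 758.8 with rSLURP1. Vim, the most abundant of them, fell from 1258.9 ± 78.4 to 664.5 ± 30.3 TPM (SD, n = 3 each). The falls of Dcn, from 580.7 ± 58.2 to 5.46 ± 0.379 TPM, and Lum, from 176.7 ± 15.7 to 0.907 ± 0.284 TPM, were larger in fold (SD, n = 3 each). Among them, Col1a1 passed through its rGST libraries only (7.48 to 9.66 TPM with rGST and 0.26 to 0.42 with rSLURP1). Cdh2 did not pass the filter and did not exceed 0.050 TPM. The mesenchymal markers that passed, which include Pdgfra, thus moved in the direction of Ly6e, Chrnb1, Pdgfra and Pdgfrb, and their part in those results was not tested. The summed levels of endothelial, hematopoietic and skeletal muscle markers did not exceed 0.31, 0.10 and 0.22 TPM in any library, and Ptprc, Myod1 and Myog were at or near 0. The neuronal list summed to at most 1.27 TPM. Within it, Tubb3 was at 0.15 to 0.46 TPM with rGST and at 0.79 to 1.04 with rSLURP1. Tubb3 did not pass the filter and was called higher when the filter was dropped (log2 fold change 0.53, adjusted p = 0.0147 in limma). In the terminal keratinocyte list Krt10 alone was above 0, with sums of 2.77 to 5.28 TPM with rGST and 1.57 to 4.09 with rSLURP1.

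The calls of Ly6e, Chrnb1 and Plaur were kept in every processing tried. Ly6e ranged from -1.82 to -1.32 on the log2 scale, Chrnb1 from -0.87 to -0.42 and Plaur from 1.06 to 1.5. Lypd6b did not pass the filter that asks for a TPM of 1 in all 6 libraries.

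**Figure D5:**
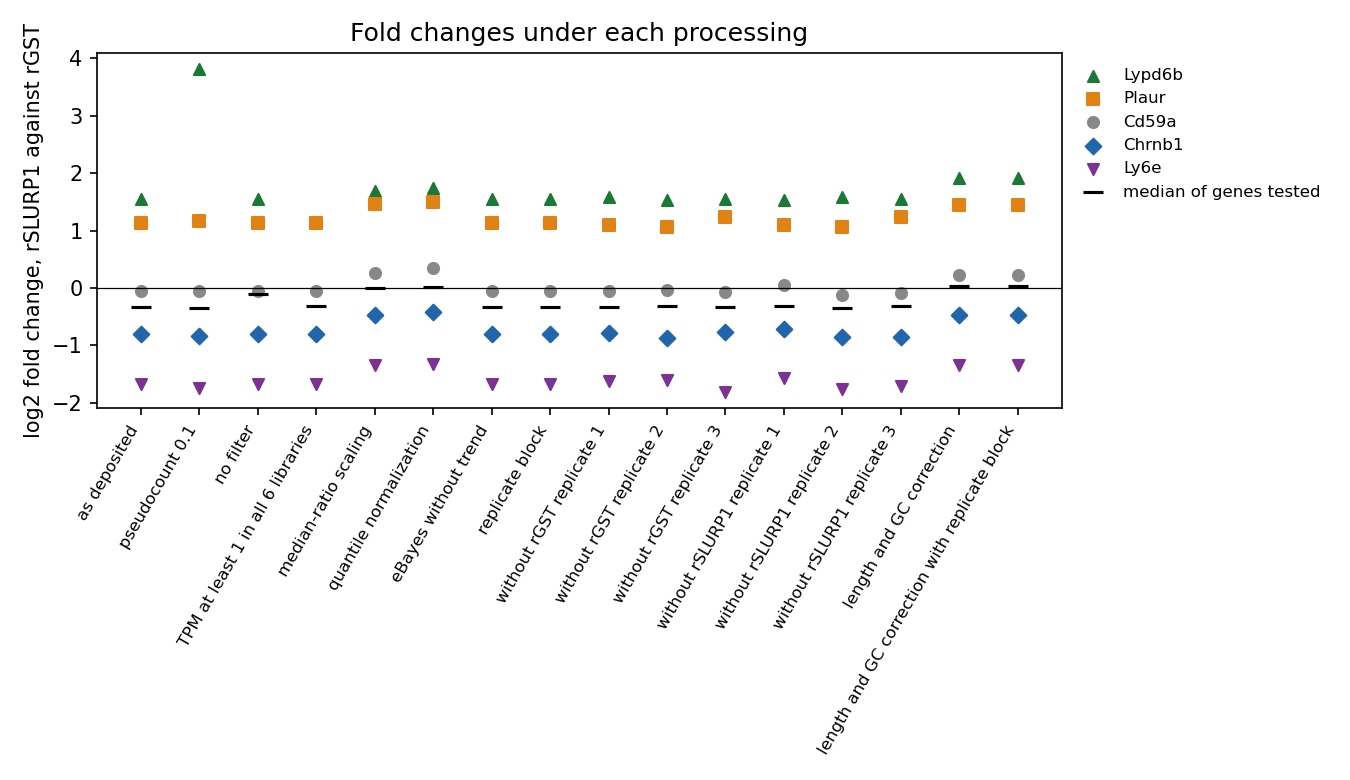
Log2 fold change (vertical) of Lypd6b, Plaur, Cd59a, Chrnb1 and Ly6e under each processing (horizontal), with the median of the genes tested in it as a dash. Ly6e and Chrnb1 stay below and Plaur above 0 throughout, and Cd59a changes sign with both scalings, with the length and GC correction and without rSLURP1 replicate 1.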

How the data were processed

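RNAseq of D2A1 spheroids was analysed in 3 rSLURP1 and 3 rGST libraries, grouped by sample title. Per the submitters' processing notes, reads were trimmed with Cutadapt 1.18, aligned to mm10 with STAR 2.5.2b and quantified with RSEM 1.3.3, and the authors deposited TPM, 1 column per library. The library kit is TruSeq mRNA in the labels but Smart-seq2 in the paper's methods. Genes were taken by GeneName, and coordinates from GENCODE M21 (GRCm38; 54079 of 54146 identifiers matched without version). Depth is unknown.

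log2(TPM + 1) was tested with limma 3.58.1 (R 4.3.3; lmFit, eBayes with trend, Benjamini-Hochberg over 12301 genes), without a block. The script was tested on simulated data. The 10 members and the 6 gene lists were chosen with earlier results of these data known. All members are named, with genes of each list that passed the filter and the 3 genes most correlated with the most abundant member; genes below the filter were named after their values were seen, and 1 listed gene is not reported here. Alternatives were a pseudocount of 0.1, other filters, median-ratio and quantile scaling, eBayes without trend, the replicate block and leaving out each library. A loess correction (span 0.3) for transcript length and GC content, alone and with the block, was added after the data were seen. Tables and figures were made in Python 3.11.15 with pandas 2.3.3 and matplotlib 3.10.9.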

Additional observations from a re-analysis of the deposited data

How the results depend on the processing

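The numbers of called genes among the members (2 or 3) and among all tested genes (5569 to 8265) stayed within 1.5 times those reported under every alternative, as did those of the other lists, except that 2 nicotinic subunits were called without a filter (Chrnb2 added) and 1 accessory gene, Rer1, after the length and GC correction, also with the block. These counts take no account of direction. With median-ratio scaling, calls over all tested genes went from 1065 higher and 7200 lower to 3198 higher and 3094 lower. Those of the GPI anchor genes went from 0 higher and 12 lower to 6 and 5, and to 9 and 5 with quantile normalization. Over 23 named genes and 15 alternatives, 291 values stayed on the same side of 0 and of the threshold and 23 changed sign. Counted whatever the sign, 28 lost their call and 10 gained one. Under median-ratio scaling, under quantile normalization and after length and GC correction (the same with the block), in this order, Cd59a reversed to 0.254, 0.343 and 0.219, Slc44a1 to 0.045, 0.105 and 0.092, Ifngr2 to 0.046, 0.107 and 0.117, Gpaa1 to 0.207, 0.240 and 0.168 and Pigk to 0.252, 0.311 and 0.362, and Unc50 to 0.038 with median-ratio scaling alone. These settings moved the median of all genes from -0.33 to 0.00, 0.02 and 0.03. In the fits that left out a library, Cd59a ranged from -0.117 to 0.056 and Pigk from -0.160 to 0.003. In the fit with the replicate block, 7962 genes and 2 members were called, and Ifngr2 passed the threshold (adjusted p = 0.0456 in limma); deviations of same-numbered libraries correlated at -0.034 to -0.061, so the numbers were not taken to pair the libraries. The effect of depth on low genes could not be assessed from TPM.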

Other observations

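The genes whose pattern over the 6 libraries was most like that of Ly6e were Rsrc2, Rictor and Cmtr1 (Pearson r = 0.9997, 0.9996 and 0.9994 on log2(TPM + 1), a description over libraries that share their treatment groups). Their log2 fold changes were -0.62, -0.77 and -0.96. In all, 471 genes had a correlation above 0.99 with Ly6e.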
